A study of Mus musculus with 6 samples.

Results

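The 34 genes described here are Myc and Mycn together with enzymes and transporters of one-carbon metabolism, nucleotide synthesis and the amino acid and polyamine pathways tied to them. They were chosen by name, with earlier results of these data known. Their probes are the non-control probes that carry one of the 34 names. The arrays held 57 such probes, of which 56 passed the filter on dim probes, and all 34 genes were among the 29134 features tested. Where a gene had several probes, the brightest one was used, as for every other feature. A further criterion of being well above background on all 12 channels was met by 31 of the 34, the exceptions being Mthfd2, Dhodh and Psph.

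Cells that grow and divide build purines and pyrimidines anew from amino acids, ribose phosphate and one-carbon units carried by folate. Serine is the main donor of those units, which are passed on by the serine hydroxymethyltransferases in the cytosol (Shmt1) and mitochondria (Shmt2) and by the methylenetetrahydrofolate dehydrogenases. Myc is a transcription factor that, as a dimer with Max, binds the letters CACGTG and activates many genes of these pathways. Hematopoietic stem cells (HSCs) divide rarely, whereas multipotent progenitors (MPPs), their first descendants, divide more often.

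RNA was measured in 4 groups, with 3 samples each: Bmi1 KO MPPs, Bmi1 KO HSCs, wild-type (WT) MPPs and WT HSCs, all sorted by FACS. The mice were on the C57BL6 background and 2 to 3 months of age. Bmi1 is a Polycomb protein that keeps target genes silent and is needed to maintain HSCs. Each of 6 dual-colour Agilent arrays carried 1 KO sample in red (Cy5) and 1 WT sample in green (Cy3) of the same population. The dyes were never exchanged, so a dye effect on a probe and the effect of genotype cannot be told apart in the ratios. For that reason MPPs were set against HSCs within each dye, and levels in the 2 dyes were not compared with each other. The labels call the replicates biological and do not say whether animals were pooled or where in Bmi1 the KO allele is deleted. RNA came from populations of cells, so fewer cells of a type and less RNA per cell cannot be told apart in any value below.

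Median spot signals were between 379 and 581 in the KO channel and between 124 and 206 in the WT channel. Precision is limited by having 3 arrays per population. The Bmi1 probe had log2 KO over WT ratios between -2.42 and 0.48, but as its place relative to the deleted part is not known, it does not check the genotype. The sorted populations were compared with lists of marker genes. All 9 MPP and lymphoid-priming markers were higher in MPPs than in HSCs in both genotypes, with 3 passing in each, among them Flt3, by 2.92 in KO and 3.03 in WT cells (log2, limma adjusted p = 0.0145 and 0.0230). Of 14 HSC markers, 3 were above 0 in that comparison in KO cells and 1 in WT cells. All 14 measured markers of dividing cells were above 0 in both genotypes, with none passing, and their median difference was 1.35 in KO cells (11 at an unadjusted p under 0.05) and 0.88 in WT cells (4). The summed level of those 14 lay between 17.26 and 17.79 (log2) in KO MPPs, against 15.89 to 16.45 in KO HSCs. All 12 B lineage markers were higher in KO MPPs than in KO HSCs, with a median difference of 4.27 and 2 passing. In WT cells all but Cd79b (-0.12) were higher in MPPs too, and Rag2 alone passed (limma adjusted p = 0.0162). Their summed level was 14.80 to 17.41 in KO MPPs, against 12.30 to 14.05 in KO HSCs. In the other dye it was 11.93 to 12.51 in WT MPPs, against 11.09 to 12.02 in WT HSCs. The KO and WT levels are not on a common scale. Of those 12 markers, only Rag2 was not well above background on any HSC array. Medians for MPPs minus HSCs in the markers of erythroid cells, neutrophils and monocytes, T and NK cells and megakaryocytes were 1.00, 2.13, -0.01 and -0.67 in KO cells and -0.20, 0.92, -0.12 and -0.88 in WT cells. The part of dividing cells and of other cell types in the results below was not tested.

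The 5 probes below, each of 60 bases, are examples from genes described in the text. The probes used for Mthfd2 and Slc7a5, the genes that passed in KO cells, are not among them. Positions are those in the array files (mouse build mm9), sequences run 5′ to 3′ in the sense of the transcript as the files give them, and no base is singled out by capitals. Whether a probe lies in a coding exon or a UTR was not annotated here. The Myc probe lies at chr15:61821417-61821476 on the plus strand, the Cad probe at chr5:31369954-31370013 (plus), the Gart probe at chr16:91624630-91624689 (minus) and the Shmt1 probe at chr11:60620453-60620512 (minus). The Slc7a5 sequence is that of its dimmer second probe, at chr8:124430996-124431055 (minus), which differed in size of response from the probe used, at chr8:124405136-124405195.
Myc: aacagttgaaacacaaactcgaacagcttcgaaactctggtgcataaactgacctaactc
Cad: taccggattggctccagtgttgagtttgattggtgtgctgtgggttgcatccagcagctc
Gart: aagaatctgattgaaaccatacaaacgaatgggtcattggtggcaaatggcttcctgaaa
Shmt1: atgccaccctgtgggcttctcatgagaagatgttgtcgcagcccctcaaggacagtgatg
Slc7a5: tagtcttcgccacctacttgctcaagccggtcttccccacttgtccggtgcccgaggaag

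RefSeq promoter windows of 300 bases (250 before to 50 after the start, build GRCm38.p6) were matched for 28 of the 34 genes and searched for the Myc and Max motif CACGTG, which reads the same on both strands. It occurred in 5 of the 28 (17.9%), against 8.09% of 27025 genes with a window. The 5 genes were Paics, Atic and Impdh2 of the purine pathway, Nme1 and Aldh18a1. The motif began 203, 7 and 110 bases before the start in Paics, Atic and Impdh2, and 59 before it in Aldh18a1. Nme1 has 2 annotated starts, with the motif 18 and 29 bases before them. The stretches around the motif, which is in capitals, are shown in the direction of the gene, at chr5:76951087-76951116 (plus), chr1:71557137-71557166 (plus), chr9:108560314-108560343 (plus), chr11:93968273-93968302 (minus), chr11:93968037-93968066 (minus) and chr19:40588505-40588534 (minus).
Paics: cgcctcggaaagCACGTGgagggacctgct
Atic: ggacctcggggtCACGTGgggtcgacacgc
Impdh2: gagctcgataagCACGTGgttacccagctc
Nme1, upstream start: gctgcggggaacCACGTGaggccggggagc
Nme1, downstream start: agcttgatacgcCACGTGggctcgcctttg
Aldh18a1: ggagggggccgcCACGTGgagcgtgggcgc
A second motif, the amino acid response element TGATGNAA, was searched on both strands after the data had been seen. It was found in 2 of the 28 windows, those of Prps1 and Pycr1 (7.14%), against 4.51% of all genes. No window of the 34 genes held both motifs. A match is a description of the letters and does not show binding.

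In Bmi1 KO cells, 2 of the 34 genes were higher in MPPs than in HSCs and none was lower, but 1 of the 2 met the filter on dim probes through its MPP samples alone. They were Mthfd2, the mitochondrial methylenetetrahydrofolate dehydrogenase, and Slc7a5, the light chain of the LAT1 transporter of large neutral amino acids. Mthfd2 was well above background on 1 of 3 HSC arrays in each genotype, and of the 33 genes with a probe well above background in the KO channel on all arrays, only Slc7a5 passed. Over all features, 122 (0.419%) passed in the direction of MPPs and 31 (0.106%) in that of HSCs at an adjusted p under 0.05 (limma, Benjamini-Hochberg over 29134 features). With 1 array left out, these counts lay between 57 and 131 and between 1 and 24, the lowest of both without MPP replicate 3. As a group the genes lay on the MPP side: 27 of 34 differences were above 0, against 43.0% of all features, and their median was 0.71 on the log2 scale, against -0.09. The 3 MPP values lay above the 3 HSC values for 11 genes and below them for 2, shares that were 8.62% and 11.1% among all features.

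In WT cells none of the 34 genes passed in the same comparison, against 105 features (0.360%) higher and 17 (0.0584%) lower in MPPs. Those counts rested on single arrays: they were 0 and 0 without MPP replicate 3, 2 and 0 without HSC replicate 1, 7 and 0 without MPP replicate 1, 39 and 8 without HSC replicate 3, 54 and 11 without HSC replicate 2, and 116 and 5 without MPP replicate 2. None of the 34 genes passed in any of these. At an unadjusted p under 0.05, 10 genes were higher and 1 lower in WT MPPs, against 6.77% and 8.40% of all features. In KO cells those counts were 11 and 1, against 6.52% and 5.53%. In WT cells 25 of 34 differences were above 0, against 43.7% of all features, and the median was 0.61, against -0.09. The 3 WT MPP values lay above the WT HSC values for 11 genes (8.25% of all features) and below them for none (13.8%). Genes past the threshold in KO cells alone are not thereby shown to differ between the genotypes. That difference was tested as the KO over WT ratio in MPPs minus the same ratio in HSCs, and it passed for no feature. Ratios and levels were normalized separately, so it need not equal the KO difference in level minus the WT one.

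**Figure D1:**
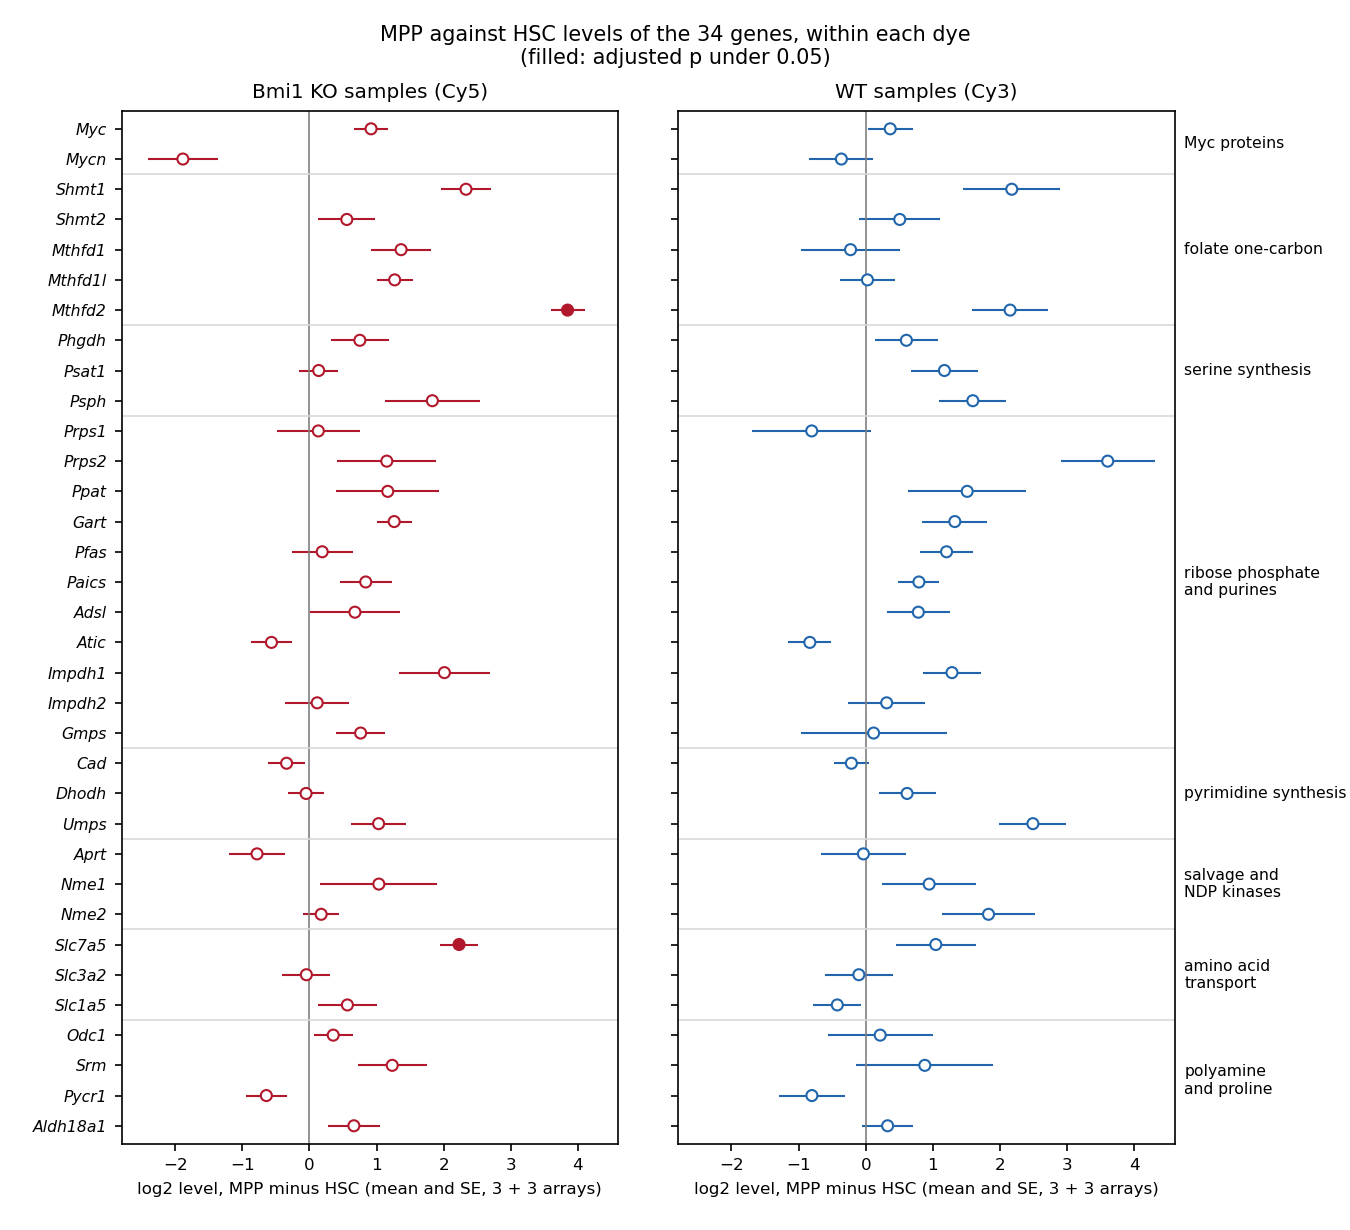
Difference in log2 level between MPPs and HSCs for each of the 34 genes (x axis), with its SE over 3 MPP and 3 HSC arrays, in Bmi1 KO samples (left, Cy5) and WT samples (right, Cy3), grouped by pathway. Filled points pass an adjusted p under 0.05: Slc7a5 at 2.23 and Mthfd2 at 3.85, both in KO cells, the size for Mthfd2 resting on HSC signals well above background on 1 of 3 arrays.

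Of the folate one-carbon enzymes, all 5 had differences above 0 in KO cells, with a median of 1.37, and 4 of 5 in WT cells, with a median of 0.51. Mthfd2 had levels of 10.73, 11.07 and 10.46 (log2) in KO MPPs, against 6.94, 6.91 and 6.87 in KO HSCs. The WT levels of Mthfd2 were 8.04, 9.71 and 7.96 in MPPs, against 7.03, 5.98 and 6.25 in HSCs. MPPs thus stood above HSCs in both genotypes without overlap. The probe was well above background on all 3 arrays of each MPP group and on 1 of 3 arrays of each HSC group, so the size of the difference depends on how dim signals were treated. It was 3.85 (SE 0.25, adjusted p = 0.00333) in KO cells, where the HSC values had an SD of only 0.035, and 2.15 (SE 0.56, adjusted p = 0.238) in WT cells. With Agilent's processed signals it was 5.69 (adjusted p = 0.0110) in KO cells and 4.66 (adjusted p = 0.308) in WT cells. The difference between genotypes was 1.098 (SE 0.57, adjusted p = 0.964).

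Shmt1, which transfers a carbon of serine to folate in the cytosol, had a difference of 2.33 (SE 0.38, adjusted p = 0.0714) in KO cells, without overlap of the groups. In WT cells it was 2.18, also without overlap. Its second probe gave 1.79 and 1.14. Mthfd1l, a mitochondrial formyltetrahydrofolate synthetase, had a difference of 1.27 (SE 0.27, adjusted p = 0.138) in KO cells, without overlap, and 0.03 in WT cells. The second Mthfd1l probe gave the opposite picture, 0.05 in KO and 1.05 in WT cells. Mthfd1, the cytosolic enzyme with several steps of the folate cycle, separated the groups in KO cells, and they overlapped in WT cells. Shmt2 overlapped in both. The difference between genotypes did not pass for any of these genes.

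Of the amino acid transporters, Slc7a5 had levels of 11.85, 11.84 and 12.27 in KO MPPs, against 9.61, 9.53 and 10.14 in KO HSCs. Its WT levels were 10.16, 10.38 and 10.73 in MPPs, against 9.99, 8.02 and 10.12 in HSCs. The groups did not overlap in either genotype, though WT HSC replicate 3 came within 0.1 of the lowest WT MPP sample. The difference was 2.23 (SE 0.28, 4.69-fold, adjusted p = 0.0347) in KO cells and 1.04 (adjusted p = 0.438) in WT cells. The second probe of Slc7a5, printed above, gave 0.88 in KO and 0.57 in WT cells, and with the mean of both probes the KO difference was 1.56 (adjusted p = 0.0709). Slc3a2, the heavy chain with which Slc7a5 forms the transporter, had differences of -0.05 in KO and -0.10 in WT cells. Slc1a5, a glutamine transporter, had 0.57 and -0.42, and its groups overlapped in both.

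Both Slc7a5 and Mthfd2 lost their calls when the row of the slide was added as a block. The row was read from the names of the scanner files, not from a label. That block leaves MPP replicate 1 as the only MPP array in the row of the HSC arrays. The differences were then 3.82 for Mthfd2 (adjusted p = 0.0916) and 2.09 for Slc7a5 (adjusted p = 0.541). Leaving out any 1 array kept Mthfd2 past the threshold, with differences between 3.69 and 3.99. All those fits draw on the dim KO HSC values of Mthfd2, well above background on 1 of 3 arrays and with an SD of 0.035. So small a spread favours a call, and these fits therefore do not show that the call is robust. Slc7a5 passed without HSC replicate 3 and missed the threshold when any other array was left out, with adjusted p between 0.0875 and 0.167.

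Myc was bright in all samples. Its levels were 14.35, 14.75 and 14.80 in KO MPPs, against 13.63, 13.94 and 13.58 in KO HSCs. In WT cells they were 13.00, 13.04 and 13.07 in MPPs, against 12.02, 13.01 and 12.99 in HSCs. All KO MPP samples were above all KO HSC samples, whereas the WT groups overlapped, with 2 of the 3 WT HSC samples at the level of WT MPPs. The difference was 0.92 (SE 0.25, adjusted p = 0.247) in KO cells and 0.36 (SE 0.33, adjusted p = 0.619) in WT cells, and without WT HSC replicate 1 the WT difference was 0.04.

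Mycn, the paralog of Myc that is also expressed in blood stem cells, lay the other way. It had levels of 9.55, 9.94 and 10.37 in KO MPPs, against 10.81, 12.78 and 11.92 in KO HSCs. The WT levels were 9.08, 9.64 and 8.94 in MPPs, against 10.50, 8.80 and 9.46 in HSCs. KO HSCs were all above KO MPPs but spread over almost 2 log2 units, and the WT groups overlapped. The difference was -1.89 (SE 0.52, adjusted p = 0.247) in KO cells and -0.36 (SE 0.48, adjusted p = 0.739) in WT cells. Leaving out WT HSC replicate 1 turned the WT value to 0.09.

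**Figure D2:**
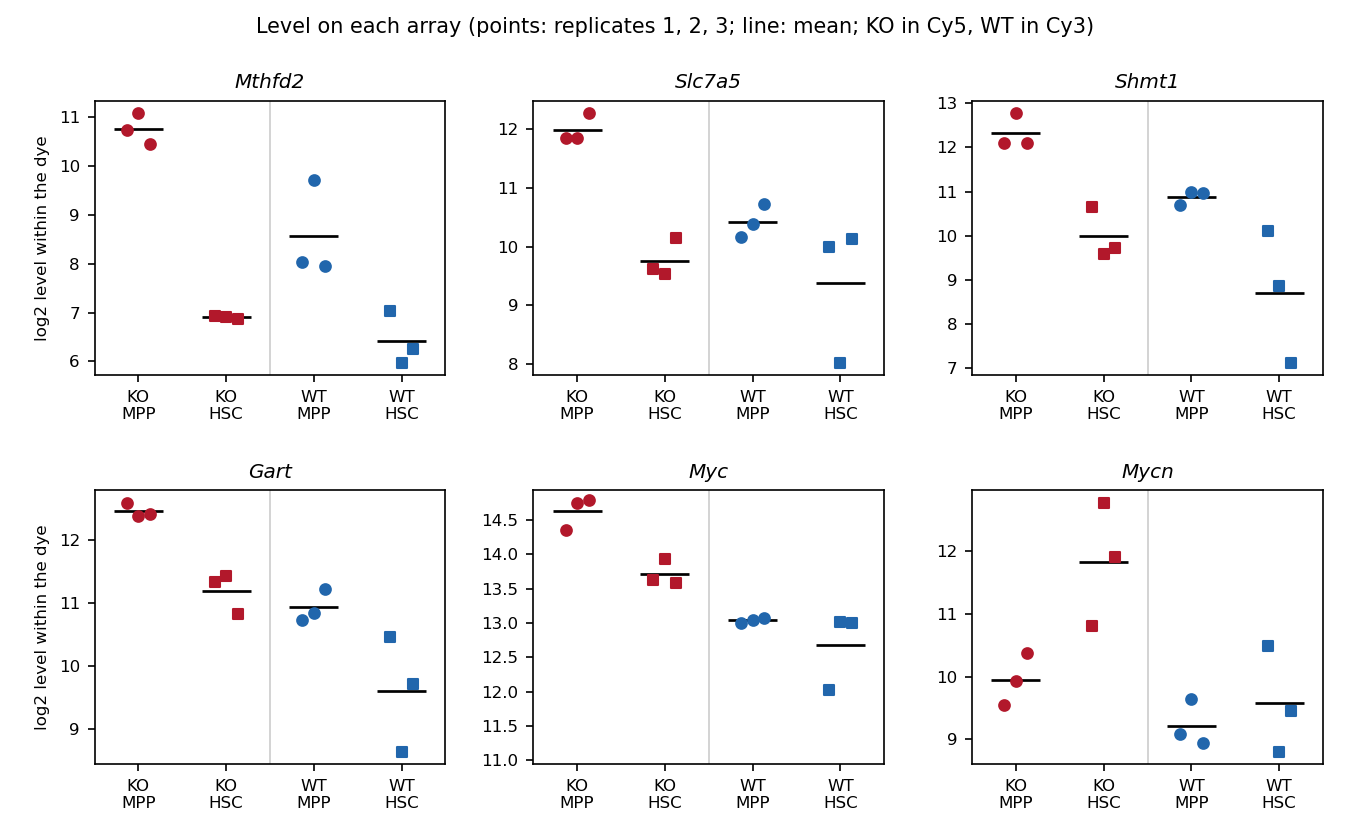
Log2 level within the dye (y axis) of 6 genes in each sample of KO MPPs, KO HSCs (red, Cy5), WT MPPs and WT HSCs (blue, Cy3), with the group mean as a line. Mthfd2 lies between 10.46 and 11.07 in KO MPPs and between 6.87 and 6.94 in KO HSCs, and Mycn is higher in all KO HSCs than in any KO MPP sample; levels in red and blue are not on a common scale.

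Of the 11 genes for ribose phosphate and purine synthesis, 10 had differences above 0 in KO cells and 9 in WT cells, with medians of 0.76 and 0.79, and none passed. At an unadjusted p under 0.05, 2 were higher and none lower in KO MPPs (6.52% and 5.53% of all features), while 5 were higher and 1 lower in WT MPPs (6.77% and 8.40%). Gart, a single protein that carries several steps of the purine pathway, had a difference of 1.26 (SE 0.26, adjusted p = 0.134) in KO cells and 1.33 in WT cells, without overlap in either. Its second probe gave 0.55 and 1.08. Paics, another enzyme of the pathway with more than a single activity, also separated the groups in both, by 0.84 in KO and 0.79 in WT cells. Prps2, which makes phosphoribosyl pyrophosphate, had the highest WT difference of the 34 genes, 3.60 (SE 0.70, adjusted p = 0.147), against 1.15 with overlapping groups in KO cells. Pfas separated the WT groups, by 1.20 (SE 0.40, adjusted p = 0.285), as did Impdh1, an isoform of the enzyme that commits inosine monophosphate to guanine nucleotides.

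Atic, the enzyme of the last purine steps, stood on the HSC side, with -0.57 (SE 0.30, adjusted p = 0.494) in KO and -0.83 in WT cells. Its second probe pointed to MPPs, with 0.70 and 0.87, so the direction for Atic rests on the probe. The remaining genes of the group, Prps1, Ppat, Adsl, Impdh2 and Gmps, had differences between 0.12 and 1.17 in KO cells and between -0.80 and 1.51 in WT cells, with overlapping groups in both.

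Of the 3 enzymes of pyrimidine synthesis, Umps, which makes uridine monophosphate, separated MPPs from HSCs in both genotypes. Its difference was 1.03 (adjusted p = 0.393) in KO cells and 2.49 (SE 0.50, adjusted p = 0.157) in WT cells, and its second probe gave 1.96 and 1.31. Cad, which carries the first steps of the pathway, had differences of -0.34 and -0.21, and Dhodh, the mitochondrial enzyme between them, -0.05 and 0.62. Dhodh was well above background on 1 of 3 WT HSC arrays. Aprt, which salvages adenine, and the nucleoside diphosphate kinases Nme1 and Nme2 lay between -0.78 and 1.03 in KO cells and between -0.03 and 1.83 in WT cells, and their groups overlapped. The value of 1.83 was that of Nme2, whose second probe gave -0.10 in WT cells.

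By the probes used, all 3 enzymes that make serine from a glycolytic intermediate had differences above 0 in both genotypes, with none passing. Psph, which catalyses the last step, separated the groups by 1.83 (SE 0.71, adjusted p = 0.391) in KO cells and by 1.60 (SE 0.50, adjusted p = 0.275) in WT cells. It was well above background on 2 of 3 arrays in KO HSCs. The second Psph probe gave 0.97 in KO and -0.14 in WT cells, so the WT direction rests on the probe. Phgdh and Psat1, the enzymes of the first steps, had 0.75 and 0.14 in KO cells and 0.61 and 1.17 in WT cells. Of the polyamine and proline genes, Srm, the spermidine synthase, separated KO MPPs from KO HSCs, by 1.23. Odc1, the first enzyme of polyamine synthesis, and the proline enzymes Pycr1 and Aldh18a1 had differences between -0.64 and 0.66 in KO cells and between -0.80 and 0.33 in WT cells, with overlapping groups. The Pycr1 probes disagreed in sign, with -0.64 and 1.28 in KO cells.

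Probes of a gene could be compared for 18 of the 34. They had 1 sign in 15 genes for MPPs against HSCs in KO cells and in 12 genes in WT cells. For KO over WT they had 1 sign in 11 genes in MPPs and in 10 genes in HSCs.

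Samples of one group differed more in HSCs than in MPPs. The median SD of the 34 log2 levels was 0.33 in KO MPPs and 0.67 in KO HSCs, and 0.56 in WT MPPs and 0.77 in WT HSCs. All features had the same order, with medians of 0.29 and 0.48 in KO cells and 0.38 and 0.44 in WT cells. The SD was larger in HSCs for 26 of the 34 genes in KO cells and for 23 in WT cells, against 72.4% and 57.8% of all features. The widest spreads were those of Nme1 in KO HSCs (1.87) and of Gmps (2.19) and Srm (2.08) in WT HSCs. Cad had SDs of 0.29 in KO MPPs, 0.25 in KO HSCs, 0.32 in WT MPPs and 0.14 in WT HSCs, the last being the lowest of the 34 genes in that group.

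**Figure D3:**
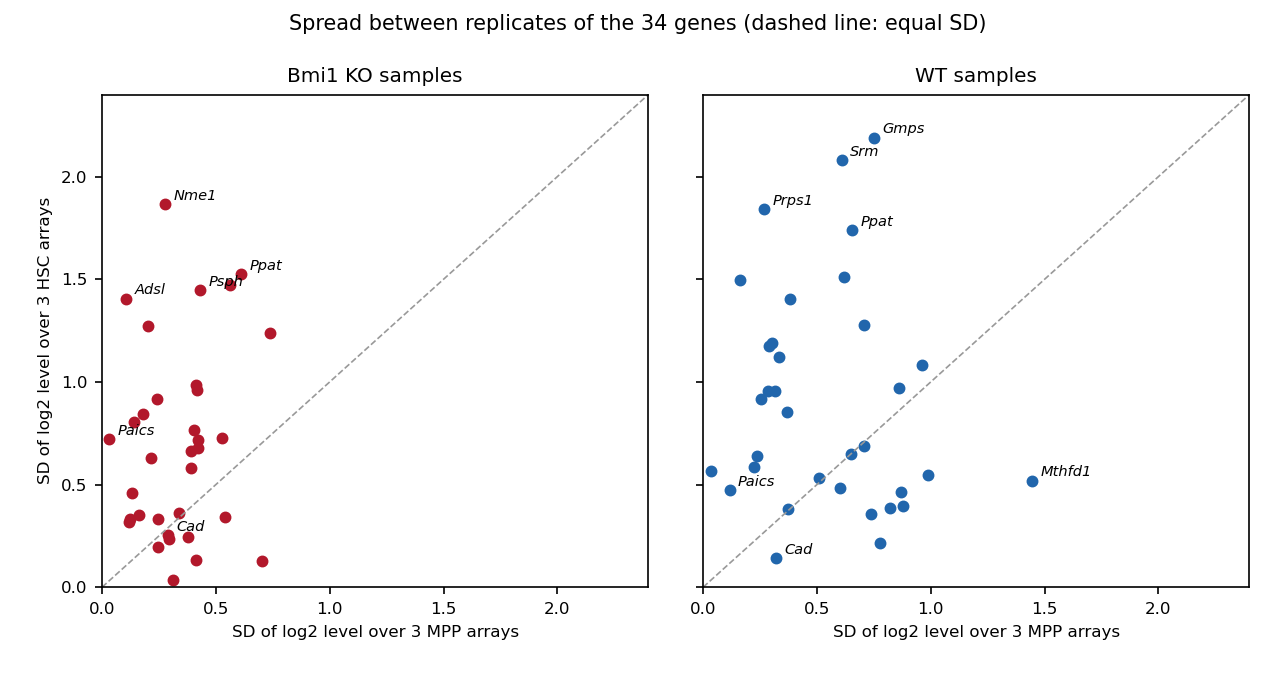
SD of the log2 level over 3 MPP arrays (x axis) and over 3 HSC arrays (y axis) for each of the 34 genes, in Bmi1 KO samples (left) and WT samples (right). Points above the dashed line vary more among HSCs, as 26 do in KO and 23 in WT samples.

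Bmi1 KO samples were next compared with WT samples on the same array, which asks whether loss of Bmi1 moves these genes. No gene of the 34 and no feature (0%) passed in MPPs, in HSCs, in the difference between them or in their mean (limma, 29134 features), and the separate-channel model called none of the 34 either. Over all features, the ratios of replicate arrays correlated at -0.01 to 0.22 in MPPs and at -0.08 to 0.09 in HSCs. The lack of calls does not show that these genes stay unchanged without Bmi1. At an unadjusted p under 0.05, 1 gene was higher and none was lower in KO MPPs, against 2.49% and 2.62% of all features. In HSCs 2 were higher and 1 was lower, against 3.95% and 3.45%. The median log2 ratio of the 34 genes was 0.16 in MPPs (21 above 0, a share of 50.7% over all features) and 0.33 in HSCs (23 above 0, 50.2%), against 0.01 and 0.00 over all features. For the mean over both populations, 2 genes were higher and 2 lower at an unadjusted p under 0.05, against 4.49% and 3.88%. Single arrays decided the medians of MPPs and of HSCs. By array, the median was 0.44, 0.10 and -0.20 on MPP replicates 1 to 3 and -0.37, 0.30 and 0.15 on HSC replicates 1 to 3. Leaving out MPP replicate 1 gave -0.04 in MPPs, and leaving out HSC replicate 3 or 2 gave 0.00 or 0.03 in HSCs.

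Cad was the only one of the 34 genes with a ratio of 1 sign on all 6 arrays, as 3.26% of features were in the direction of KO and 3.30% in that of WT. Its log2 KO over WT ratio was 0.58, 0.62 and 0.53 in MPPs and 0.80, 0.61 and 0.66 in HSCs; these single values were added after they were seen. The ratios of the 6 arrays lay within 0.3 of each other. Averaged, the ratio was 0.58 (SE 0.21, adjusted p = 0.965) in MPPs, 0.69 (SE 0.21, adjusted p = 0.664) in HSCs and 0.63 (SE 0.15, 1.55-fold, adjusted p = 0.567) over both. Since KO was red on every array, a probe effect of the dye would have this form too, and the 2 cannot be told apart.

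In MPPs 7 of the 34 genes were higher in KO on all 3 arrays and 3 were lower, against 14.8% and 14.2% of features. The higher ones named by smallest p were Cad, Odc1 at 0.61 (SE 0.62), Gmps at 0.91 (SE 0.96), Prps1 at 0.43 (SE 0.49) and Ppat at 0.55 (SE 1.06), beside Slc7a5 and Paics at 0.17 each, and the lower ones Prps2 at -0.90 (SE 0.81), Impdh1 at -0.32 (SE 0.47) and Myc at -0.13 (SE 0.28), with adjusted p between 0.965 and 0.995. Each SE uses 1 estimate of spread from all 6 arrays, so it also includes the spread between HSC arrays. The SD of the ratio was 0.11 in MPPs and 3.22 in HSCs for Ppat, and 0.11 and 1.38 for Prps1. The second Ppat probe gave -0.41 in MPPs, the opposite sign. In HSCs 4 were higher and 2 lower on all 3 arrays, against 13.3% and 13.6% of features. Umps was higher by 1.52 (SE 0.39, adjusted p = 0.664), Nme2 by 1.48 (SE 0.62, adjusted p = 0.664) and Dhodh by 0.40 (SE 0.38, adjusted p = 0.792), beside Cad. The Dhodh probe was well above background on only 1 of 3 WT HSC arrays. Slc1a5 was lower by a log2 ratio of -0.95 (SE 0.24, adjusted p = 0.664) and Psph by -0.97 (SE 0.55, adjusted p = 0.697). The second Umps probe gave -0.45 and the second Nme2 probe -0.40, the opposite sign, while the second probes of Slc1a5 and Psph gave -0.48 and -0.59.

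**Figure D4:**
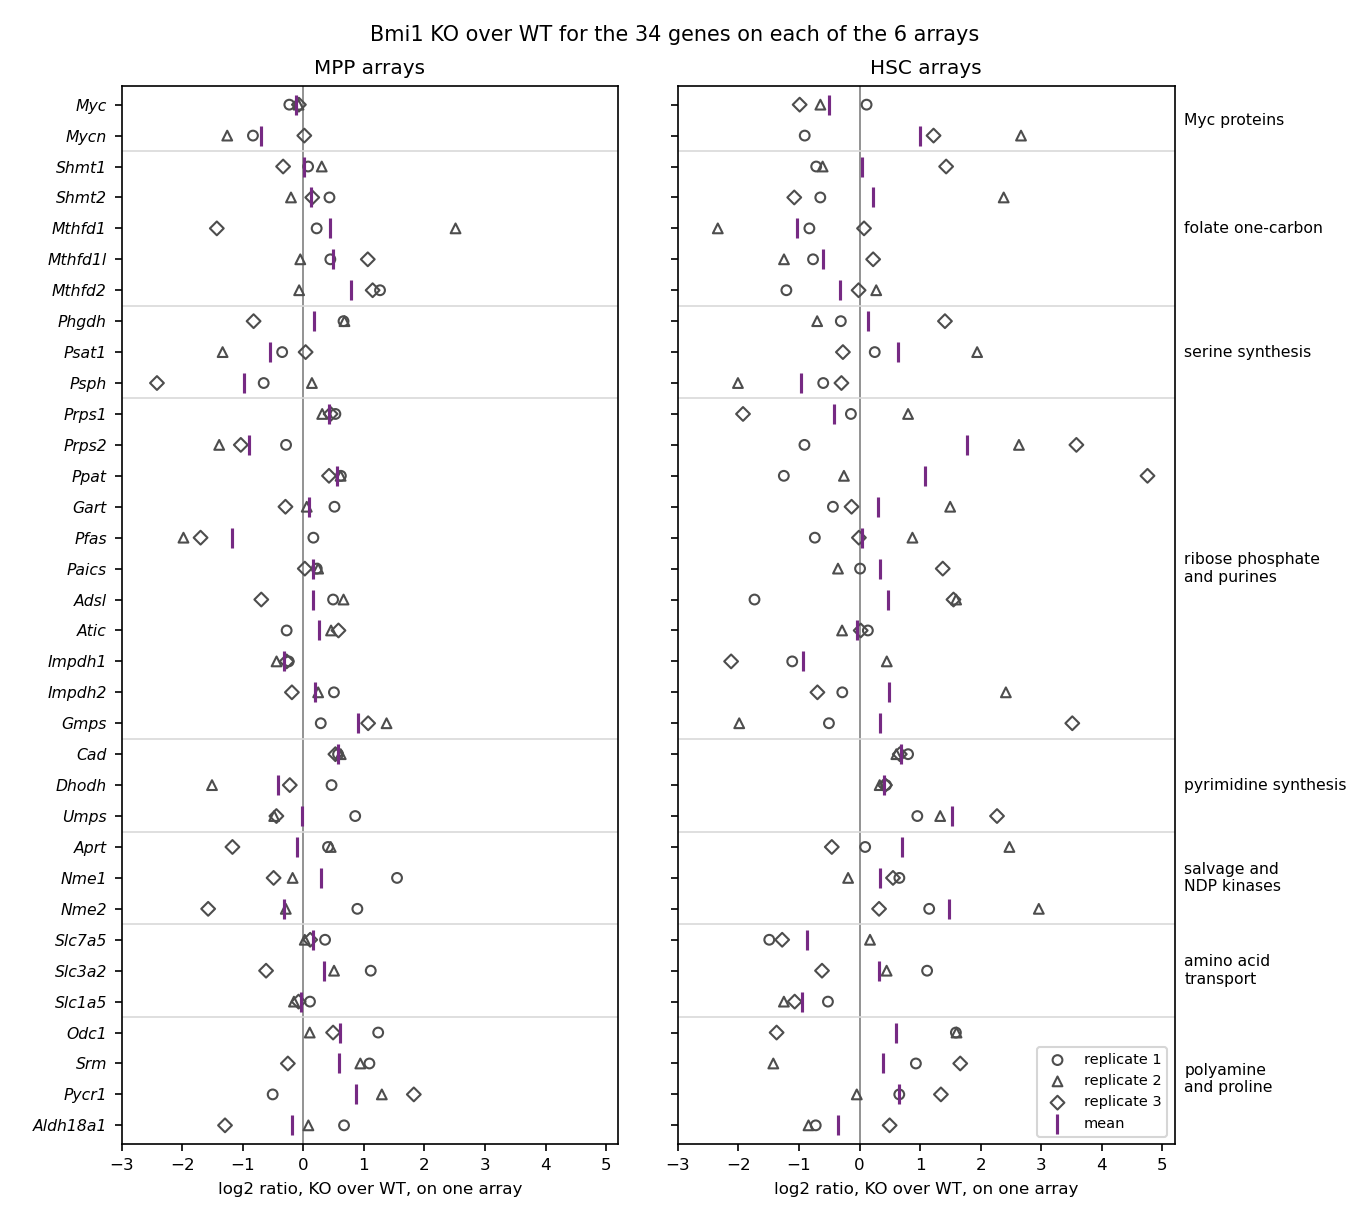
Log2 ratio of Bmi1 KO over WT (x axis) for each of the 34 genes on each of 3 MPP arrays (left) and 3 HSC arrays (right), with the mean as a purple bar. Cad lies between 0.53 and 0.80 on all 6 arrays, whereas single HSC arrays reach 4.75 for Ppat and 3.58 for Prps2.

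Myc had log2 ratios of -0.23, -0.08 and -0.07 on the MPP arrays and 0.12, -0.65 and -0.99 on the HSC arrays. The mean was -0.13 in MPPs (adjusted p = 0.995) and -0.51 in HSCs (SE 0.28, adjusted p = 0.692). Both were above 0 when arrays were centred on their median in place of the loess curve (0.46 and 0.16), a setting that moved the median of all features by 0.26 and 0.29. Mycn had -0.83, -1.25 and 0.02 on the MPP arrays and -0.90, 2.67 and 1.22 on the HSC arrays, with means of -0.69 (adjusted p = 0.984) and 0.99 (adjusted p = 0.726), and HSC arrays of both signs. Mthfd2 had ratios of 1.27, -0.07 and 1.15 in MPPs and -1.21, 0.28 and -0.02 in HSCs. Slc7a5 had 0.36, 0.03 and 0.12 in MPPs and -1.49, 0.17 and -1.28 in HSCs. For both genes the ratios of MPPs and HSCs overlapped.

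The effect in MPPs minus the effect in HSCs had a median of -0.01 over the 34 genes, with 16 above 0, against 50.8% of all features. At an unadjusted p under 0.05, 1 gene was higher and 1 lower, against 1.69% and 2.35%. The ratios did not overlap between the populations for 2 genes, Slc1a5 with 0.91 (SE 0.34) and Umps with -1.54 (SE 0.55), against 3.81% of features higher and 4.29% lower. Both had an adjusted p of 0.964 (limma). The second Umps probe went the other way, with a higher ratio in MPPs (-0.12) than in HSCs (-0.45). All 12 B lineage markers had KO over WT ratios above 0 in MPPs, with a median log2 ratio of 3.04, none passing and 10 at an unadjusted p under 0.05. In HSCs the median of those markers was 0.16.

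Other genes of the same pathways were listed apart from the 34, and none of the 7 lists had a gene that passed in any of the 6 comparisons (limma). At an unadjusted p under 0.05, each list had 1 to 6 genes higher and 0 to 3 lower in KO MPPs against KO HSCs (6.52% and 5.53% of all features), and 1 to 5 higher and 0 to 2 lower in WT cells (6.77% and 8.40%). Over all features the median was -0.09 in both, with 43.0% of differences above 0 in KO and 43.7% in WT cells. Among 19 measured of 21 further Myc targets, 15 differences were above 0 in KO cells, with a median of 0.76 and 6 genes higher at an unadjusted p under 0.05. Hspd1, a mitochondrial chaperonin, had 1.97 (SE 0.31, adjusted p = 0.0670) and Tfrc, the transferrin receptor, 1.85 (SE 0.34, adjusted p = 0.103). In WT cells 14 of the 19 were above 0, with a median of 0.55. Among 20 further pyrimidine and deoxynucleotide genes the medians were 0.53 in KO and 0.39 in WT cells. Dut, which hydrolyses dUTP, separated the groups in both, by 1.35 (adjusted p = 0.289) and 1.15 (adjusted p = 0.235). For 23 of 25 further purine genes the medians were 0.29 and 0.38. Dck, the deoxycytidine kinase, had 1.96 in KO and 1.98 in WT cells (adjusted p = 0.260 and 0.154), and Xdh, which makes uric acid, had -4.43 in KO cells (SE 0.88, adjusted p = 0.124).

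The 22 measured of 24 other folate and methyl cycle genes had medians of -0.01 in KO and -0.30 in WT cells. Slc25a32, the mitochondrial folate carrier, had 1.17 (adjusted p = 0.225) in KO cells, and Amt of the glycine cleavage system -2.26 (adjusted p = 0.213). The 17 measured of 21 genes of the Myc network, which hold partners and antagonists of Myc, had medians of -0.25 and 0.40. Ruvbl2, an ATPase that binds Myc, had 0.971 in KO and 1.101 in WT cells (adjusted p = 0.220 and 0.285), and Bcl6 had 1.58 in WT cells (adjusted p = 0.0931). The 10 measured of 13 other polyamine genes had medians of 0.16 and -0.25. The 23 measured of 24 other amino acid genes had medians of 0.29 and 0.06. For KO over WT the medians of the 7 lists were between -0.34 and 0.27 in MPPs and between -0.15 and 0.48 in HSCs, with 0.01 and 0.00 over all features. At an unadjusted p under 0.05, a list had 0 to 2 genes higher and none lower in MPPs (2.49% and 2.62% of all features), and 0 to 2 higher and 0 to 3 lower in HSCs (3.95% and 3.45%).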

How the data were processed

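Per the file headers, the authors deposited 1 scanner file per array with the mean and background intensity of each spot in both channels (Agilent Feature Extraction, version 10.7.3.1 in the headers and 8.5.1.1 per the submitters' processing notes). They also deposited log10 ratios of processed red over green, also held in the table of the whole series, and other columns of 0 or 1 marks for spots well above background or non-uniform. Here, intensities were corrected with normexp (offset 50) in limma 3.58.1 (R 4.3.3; files read with jsonlite 2.0.0 and data.table, version 1.17.8). Ratios were loess-normalized within arrays, and levels quantile-normalized within each dye. Marked spots were left out. Probes well above background on all 3 arrays of at least 1 group were kept, and the brightest was used per gene. Tests used lmFit and eBayes, with all 6 arrays in 1 fit and a mean for each population, adjusted by the Benjamini-Hochberg method (threshold 0.05); scripts were tested on simulated data. The p-values measure the spread between these samples, and an exact permutation of 3 against 3 arrays could not give a two-sided p below 0.1. RefSeq accessions gave current symbols to 48.9% of probes. The 34 genes and the lists were chosen with earlier results of these data known. All 34 were to be accounted for, with full statistics for those that passed, or otherwise for up to 5 per direction of consistent sign with the smallest p; per-sample values were to be given for passing genes, Myc and Mycn. Alternatives covered background correction, normalization, filters, probes, marked spots, each array left out, replicate number and slide row as blocks, and a separate-channel model.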

Additional observations from a re-analysis of the deposited data

How the results depend on the processing

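The count of 2 genes higher in KO MPPs than in KO HSCs was 1 with Agilent's processed signals, with the mean of a gene's probes, with the separate-channel model and with the replicate number as a block (replicate block), Mthfd2 in each, and 1 (Slc7a5) when probes had to be well above background in the channel on all arrays, which leaves out Mthfd2. It was 0 with the slide row as a block, and 1 to 2 with 1 array left out. In WT cells the separate-channel model called 2 (Mthfd2 and Umps) in place of 0. Over all features it called 223 higher and 61 lower in WT MPPs, in place of 105 and 17. Correlations of same-numbered arrays in their deviations from the group means were -0.07 to 0.02 for ratios, 0.003 to 0.09 for KO levels and 0.04 to 0.16 for WT levels, not above 0.1 for every number, so the numbers were not taken as pairs. As a hint from the data, each of 3 WT HSC arrays, and 2 of 3 KO HSC arrays, correlated best with the MPP array of its number. With the replicate block the features higher and lower in MPPs numbered 36 and 1 in KO cells and 0 and 0 in WT cells, and with the slide row 16 and 0, and 0 and 0. Median centring in place of loess, or within the dye, gave medians of the 34 genes of 0.80 for KO over WT in HSCs, 0.56 for the mean effect and 0.95 for WT MPPs minus WT HSCs. It called 1 of the 34 genes, Cad, for the mean effect (1.14, limma adjusted p = 0.0415). Of all 29134 features, 299 were called higher and 4 lower for that effect. This setting moved the median of all features by 0.28 for the mean effect and brought that of the WT difference to 0.018. It turned Myc to 0.16 in HSCs, 0.46 in MPPs and 0.31 for the mean effect. The mean effect of Mycn turned to -0.27 without HSC replicate 2 and -0.024 without MPP replicate 3, in a range up to 0.63. The KO difference of Atic turned to 0.068 with the mean of its probes, and the WT difference of Mycn to 0.092 without HSC replicate 1, in a range down to -0.76 with 1 array left out. The cause was not tested. Over the 31 genes well above background on all 12 channels, an alternative chosen after seeing the data, the median was 0.68 for KO MPPs minus KO HSCs and 0.51 for WT. The number of arrays and the dim Mthfd2 signal in HSCs limit these values.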
